A study of Mus musculus with 2 samples.

Results

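The levels of the 5 genes of the Ikaros family, *Ikzf1*, *Ikzf2*, *Ikzf3*, *Ikzf4*, and *Ikzf5*, and of *Foxp3* were examined in CD4- mature thymocytes. These 6 genes were taken by symbol from the 48321 genes in the count tables. The RNA came from mature thymocytes of MHC-II0:CD8ab Tg mice on the C57Bl/6 background, as 2 libraries that share a single genotype. The mice are deficient for I-Aβ, a chain of class II MHC, and for the coding regions for both endogenous CD8 chains, and carry CD8α and CD8β cDNAs in the *Rosa26* locus that are turned on in thymocytes by *Cd4-Cre*. The study describes less transgenic CD8α on the cell surface than from the endogenous gene, and presumes that promoter activity in the *Rosa26* locus is weak. The titles of the libraries name cells without either co-receptor, whereas their cell type field names CD8+ cells, and the study describes sorting of CD4- mature thymocytes. Ages are not given in the sources used here. The wild-type libraries of the study were not analysed here, so each value below is a level in the transgenic cells and not an effect of the transgene.

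Ikaros-family proteins are zinc-finger transcription factors of lymphocytes. The N-terminal fingers bind DNA and the C-terminal fingers let the members pair with themselves and with each other. *Ikzf1* encodes Ikaros, which is required for lymphoid development and restrains T-cell proliferation. *Ikzf3* encodes Aiolos, which is best known in B cells and in mature lymphocytes. *Ikzf2* encodes Helios, which is found in regulatory T cells and in thymocytes that have received strong TCR signals. *Ikzf4* encodes Eos, a partner of Foxp3 in gene silencing, and *Ikzf5* encodes Pegasus, the most divergent member. *Foxp3* is a forkhead factor that specifies regulatory T cells, a lineage made mainly by MHC-II-selected CD4+ thymocytes.

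On GRCm38, the build also called mm10, GENCODE M21 places *Ikzf1* on the plus strand at chr11:11685003-11772926. *Ikzf3* lies on the minus strand of the same chromosome at chr11:98464902-98546031. *Ikzf2* lies on the minus strand at chr1:69531214-69687245, *Ikzf4* on the minus strand at chr10:128630843-128645991, and *Ikzf5* on the minus strand at chr7:131388652-131410521. *Foxp3* lies on the plus strand at chrX:7573644-7595245. The principal coding sequences, translated, are 515 residues long for Ikaros, 526 for Helios, 507 for Aiolos, 586 for Eos, and 419 for Pegasus. Ikaros shared 57.0% of aligned residues with Helios, 56.9% with Aiolos, and 56.1% with Eos, but 29.3% with Pegasus. A C2H2 zinc-finger pattern was found 6 times in Ikaros, Helios, and Eos, and 5 times in Aiolos and Pegasus. Foxp3, of 429 residues, held 1 such match and is not a paralog of the others.

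The coding sequence of the first C-terminal finger is shown for *Ikzf1*, *Ikzf2*, and *Ikzf5*, because it lets a reader see how far the transcripts can be separated by short reads. It is written 5′ to 3′ on the coding strand, from the reference genome, with capitals at the bases that differ from *Ikzf1*. In *Ikzf1* it lies in exon 8 at chr11:11769411-11769473. It lies in exon 8 of *Ikzf2* (chr1:69538870-69538932) and in exon 4 of *Ikzf5* (chr7:131391739-131391801).
Ikzf1: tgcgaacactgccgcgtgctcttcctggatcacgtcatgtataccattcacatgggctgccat
Ikzf2: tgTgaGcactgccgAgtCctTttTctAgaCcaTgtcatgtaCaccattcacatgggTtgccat
Ikzf5: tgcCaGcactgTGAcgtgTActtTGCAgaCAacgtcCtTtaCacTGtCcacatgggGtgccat

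Helios carried 11 base differences from Ikaros in this finger without a single residue changed, since 21 of 21 residues were identical. Pegasus had 20 base differences and 14 identical residues. The longest run of bases identical to *Ikzf1* was 14 in *Ikzf2* and 8 in *Ikzf5*. Over the whole principal coding sequences, the longest stretch shared by any pair of the family was 26 bases, between *Ikzf1* and *Ikzf3*. None of the stretches of 50 bases, the length of the reads, in the annotated transcripts of a family member occurred in another (0 windows shared).

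Other genes do overlap some members. Exons of *Ikzf5* lie within exons of the opposite strand over 84.5% of their bases, mostly those of *Pstk* (4652 bases), which encodes a kinase for selenocysteine tRNA. *Ikzf5* had 595 counts in replicate 1 and 576 in replicate 2, beside 596 and 614 for *Pstk*. *Foxp3* exons overlap the opposite strand over 18.7% of their bases, with 590 bases in *Ccdc22*, 373 in *Gm36995*, and 266 in *Ppp1r3f*. *Ccdc22*, *Gm36995*, and *Ppp1r3f* had 5, 12, and 54 counts in replicate 1 and 8, 13, and 63 in replicate 2. Their exons lie in same-strand exons of other genes over 86.3%, 93.8%, and 46.9% of their bases, where HTSeq leaves reads out as ambiguous, so these low counts do not give the levels of the neighbours. The kit named in the labels does not mark strand and the strand setting of the counting is not given in the sources used here. Reads of *Ikzf5* and *Pstk*, and of the end exons of *Foxp3* and its neighbours, therefore cannot be told apart by strand. As a check chosen after the data were seen, 45 genes lying wholly inside exons of an opposite-strand gene were compared with their hosts. Their counts per base were a median of 1.21 times those of the host in replicate 1 (quartiles 0.241 and 1.51) and 1.19 times in replicate 2 (quartiles 0.264 and 1.52), so the pairs varied widely. Counting that ignores strand leaves reads on bases shared by 2 genes out as ambiguous, whereas most of these 45 genes held counts. Where strand is used in counting, *Pstk* reads can fall to *Ikzf5* and the reverse, and their number was not measured. *Flicr*, a non-coding RNA, shares 853 exon bases with *Foxp3* on the same strand, or 18.6% of those of *Foxp3*. It is not among the counted genes by that symbol, so its reads on these bases can fall to *Foxp3*. Their number was not measured. *Gm10356*, a processed pseudogene on chromosome 3, holds 750 of the 5818 stretches of 50 bases in *Ikzf5* transcripts, and it had 0 counts in both libraries. Reads that align to several places are left out of HTSeq counts, which lowers the counts of such stretches. *Ikzf2* and *Ikzf4* share 1.24% and 0.617% of their exon bases with opposite-strand genes, and *Ikzf1* and *Ikzf3* share 0.

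**Figure D1:**
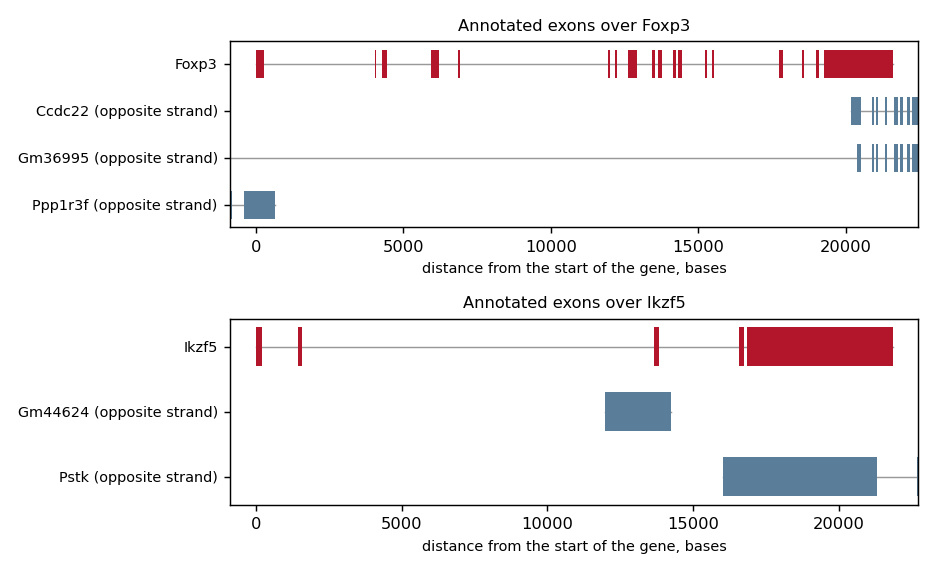
Annotated exons (boxes) of Foxp3 and Ikzf5 (red) and of the opposite-strand genes that overlap them (blue), with thin lines for introns. The x axis is the distance in bases from the start of the member, and neighbouring genes are clipped at the plotted range. The last exon of Ikzf5 lies largely under Pstk, whereas only the ends of Foxp3 are overlapped.

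The libraries had 16732644 and 16245849 counts on genes, and levels are given as CPM, counts per 1000000 of this total. With 3 counts as the smallest number taken as detection, the depth shows levels from 0.179 CPM in replicate 1 and 0.185 CPM in replicate 2. *Cd4* had 12 and 27 counts, whereas *Cd8b1* was at 775 and 786 CPM, though counts per gene do not separate transgene from locus. All 9 T-cell markers and all 8 markers of mature thymocytes were at 1 CPM or more in both libraries. The libraries differed in sex-linked RNA, with *Xist* at 34 and 25266 counts and *Ddx3y* at 2450 and 0 counts. *Foxp3* is X-linked, and its counts were nearly equal in the libraries.

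All 6 members were detected in both libraries, with from 110 to 11721 counts in a library. *Ikzf1* had 11334 and 11721 counts, equal to 677 and 721 CPM, with a mean of 699 ± 31.2 CPM (SD, n = 2). *Ikzf3* followed at 340 and 347 CPM, with a mean of 344 ± 5.12 CPM (SD, n = 2). Ikaros and Aiolos transcripts were thus both abundant, and the values of the replicates lay close together. *Ikzf2* was at 91.7 and 99.7 CPM, with a mean of 95.7 ± 5.64 CPM (SD, n = 2). *Ikzf5* was at 35.6 and 35.5 CPM, with a mean of 35.5 ± 0.0736 CPM (SD, n = 2). Its 95% Wilson intervals, from 32.8 to 38.5 CPM in replicate 1 and from 32.7 to 38.5 CPM in replicate 2, were far wider than the difference between the replicates. They leave out the uncertainty from the opposite-strand exons, mostly of *Pstk*, that cover 84.5% of the exon bases of *Ikzf5*. *Foxp3* had 202 and 201 counts, or 12.1 and 12.4 CPM, with a mean of 12.2 ± 0.212 CPM (SD, n = 2). Its 95% Wilson intervals, for counting error only, ran from 10.5 to 13.9 CPM in replicate 1 and from 10.8 to 14.2 CPM in replicate 2. These intervals leave out the uncertainty from the neighbours on the opposite strand, since the part of the counts on the 18.7% of shared exon bases that came from *Foxp3* was not measured. They also leave out any reads of *Flicr*, which shares 18.6% of the exon bases of *Foxp3* on the same strand. *Ikzf4* had 169 and 110 counts, or 10.1 and 6.77 CPM, with a mean of 8.44 ± 2.35 CPM (SD, n = 2). It was the member with the widest relative spread, higher in replicate 1 than in replicate 2. In bulk RNA, a few cells with much of a transcript and many cells with little of it cannot be told apart.

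**Figure D2:**
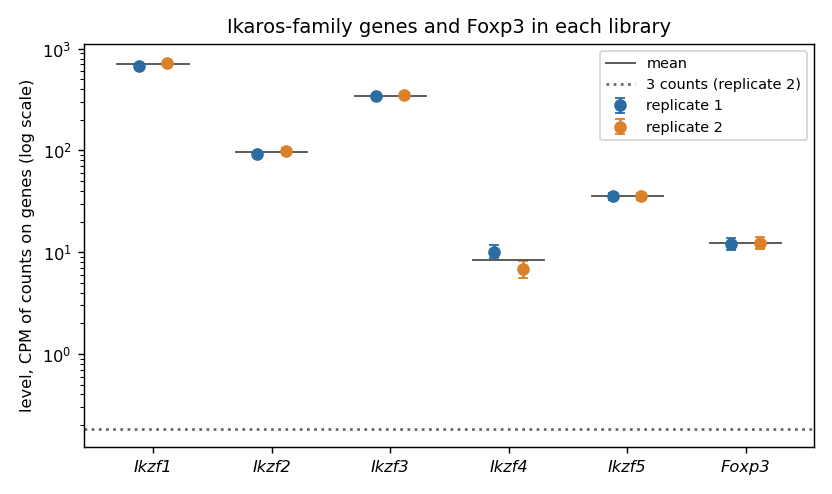
Level of each member in CPM (log scale) in replicate 1 (blue) and replicate 2 (orange), with 95% Wilson intervals of the counts (often smaller than the points) and the mean as a line. Means run from 699 CPM for Ikzf1 to 8.44 CPM for Ikzf4, all above the dotted line at 3 counts.

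Because the exons of the members differ in length, they were compared with each other per kilobase of annotated exon. *Ikzf1* was at 121 ± 5.40, *Ikzf3* at 39.3 ± 0.585, *Ikzf2* at 8.24 ± 0.486, *Ikzf5* at 6.21 ± 0.0129, *Foxp3* at 2.67 ± 0.0464, and *Ikzf4* at 1.41 ± 0.393 CPM per kb (SD, n = 2 for each). The ranges of the replicates did not overlap for any of the 5 pairs of neighbours in this order, with exons, the longest coding transcript, or the coding sequence as the length. These differences were not tested, since the exact permutation test of 2 values against 2 cannot pass a threshold of 0.05. Within a library, *Ikzf1* was 3.08 ± 0.0916 times *Ikzf3* per kb (SD, n = 2). That ratio depends on the length used, as *Ikzf3* was at 0.325 of *Ikzf1* over all exons, at 0.694 over the longest coding transcript, and at 0.519 over the coding sequence. *Ikzf3* was 4.77 ± 0.211 times *Ikzf2* over all exons, and 9.13 ± 0.403 times over the longest coding transcript. *Ikzf2* was 1.33 ± 0.0810 times *Ikzf5* over all exons and 2.12 ± 0.130 times over the coding sequence, and the level of *Ikzf5* is uncertain by its overlap with *Pstk*. *Foxp3* was 1.98 ± 0.585 times *Ikzf4*, which ranged from 1.57 in replicate 1 to 2.39 in replicate 2. The level of *Foxp3* is uncertain by its overlaps with *Flicr* and with opposite-strand genes. Of the summed level of the 5 paralogs per kb of all exons, *Ikzf1* held 68.2% in replicate 1 and 69.2% in replicate 2. *Ikzf3* held 22.3 ± 0.436%, *Ikzf2* 4.67 ± 0.115%, *Ikzf5* 3.52 ± 0.129%, and *Ikzf4* 0.803 ± 0.250% (SD, n = 2). These shares depend on the length used, as *Ikzf3* held 37.7 ± 0.584% over the longest coding transcript and *Ikzf2* held 7.95 ± 0.204% over the coding sequence (SD, n = 2). Together *Ikzf1* and *Ikzf3* held 91.0 ± 0.264% over all exons, 92.0 ± 0.189% over the longest coding transcript, and 87.8 ± 0.0986% over the coding sequence.

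The members were then placed among 22 transcription factors of T cells, per kb of exon. *Ikzf1* ranked 4 of 28, behind *Tcf7* (317 ± 9.35 CPM per kb), which encodes TCF-1, *Ets1* (165 ± 14.5), and *Klf2* (135 ± 4.10), a factor of thymic egress. *Ikzf3* ranked 9, next to *Bcl11b* (39.3 ± 1.86), which keeps T-cell identity, and the ranges of these genes overlapped. *Ikzf2* and *Ikzf5* ranked 21 and 22, and the range of *Ikzf2* overlapped that of the gene above it, *Zbtb1* (8.50 ± 0.209). *Foxp3* and *Ikzf4* took the last places, 27 and 28, below *Zbtb7b* (2.76 and 3.24 CPM per kb), which encodes the helper-lineage factor ThPOK, and *Runx1* (2.82 and 3.26), whose ranges lay above that of *Foxp3*. Among 11833 protein-coding genes with at least 10 counts summed, *Ikzf1* ranked 239, *Ikzf3* 948, *Ikzf2* 4775, *Ikzf5* 5666, *Foxp3* 7763, and *Ikzf4* 8810, while the median gene was at 5.71 CPM per kb. *Ikzf2* and *Ikzf5* thus lay near the median, and *Foxp3* and *Ikzf4* below it. The place of *Ikzf5* is uncertain, since 84.5% of its exon bases lie in opposite-strand exons. That of *Foxp3* is also uncertain, with 18.7% of its exon bases in opposite-strand exons and 18.6% in exons of *Flicr*.

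**Figure D3:**
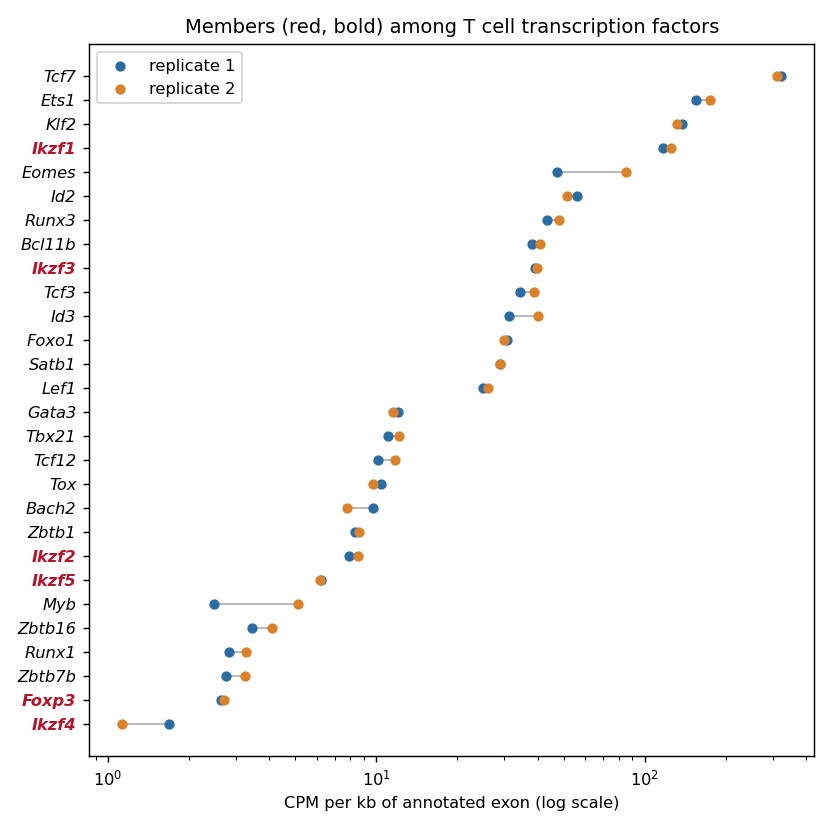
CPM per kb of annotated exon (log scale) of the 6 members (red, bold) and 22 transcription factors of T cells in replicate 1 (blue) and replicate 2 (orange), ordered by mean. Ikzf1 ranks 4 and Foxp3 and Ikzf4 rank 27 and 28.

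The difference between the replicates was tested gene by gene with a two-sided exact binomial test on the counts, which compares the libraries and not conditions. None of the members differed at least 2-fold at an adjusted p under 0.05 (0 of 6), while 242 of 15949 genes tested did, or 1.52% (92 higher in replicate 1 and 150 in replicate 2, but 99 and 98 with TMM scaling). Without a minimum fold, 2 of 6 members passed, against 16.3% of all genes. The first was *Ikzf4*, which was lower in replicate 2 with a ratio of 0.670 (95% exact interval 0.522 to 0.857, adjusted p = 0.0112 by the exact binomial test). The second was *Ikzf1*, higher in replicate 2 by 0.09 on the log2 scale (adjusted p = 3.97e-05 by the exact binomial test). The median of all genes tested was 0.08 on this scale, and with the scaling factors of edgeR's TMM or of DESeq2 *Ikzf1* no longer passed (adjusted p = 0.746 and 0.722 by the exact binomial test), whereas *Ikzf4* did (0.00364 and 0.00365). With a biological coefficient of variation of 0.1 in edgeR's exact test, neither passed (adjusted p = 0.886 for *Ikzf4* and 1 for *Ikzf1*). The log2 ratio of *Foxp3* was 0.04 and that of *Ikzf3* was 0.03, and both turned slightly negative with either scaling (-0.04 and -0.05 with TMM). Genes on the list of NK-cell markers moved with replicate 2. All 5 were found, and their levels summed to 232 and 407 CPM in replicates 1 and 2. Most of this sum was *Eomes* (196 and 355 CPM), which is also a factor of memory-like CD8+ T cells, and the other 4 summed to 36.8 and 52.8 CPM. Of these, *Ncr1* (45 and 112 counts) and *Tyrobp* (29 and 76 counts) were called higher in replicate 2. Their part in the difference of *Ikzf4* was not tested. Replicates 1 and 2 also differed in *Xist* (34 and 25266 counts) and *Ddx3y* (2450 and 0 counts). Sex therefore cannot be told apart from other differences between the libraries.

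**Figure D4:**
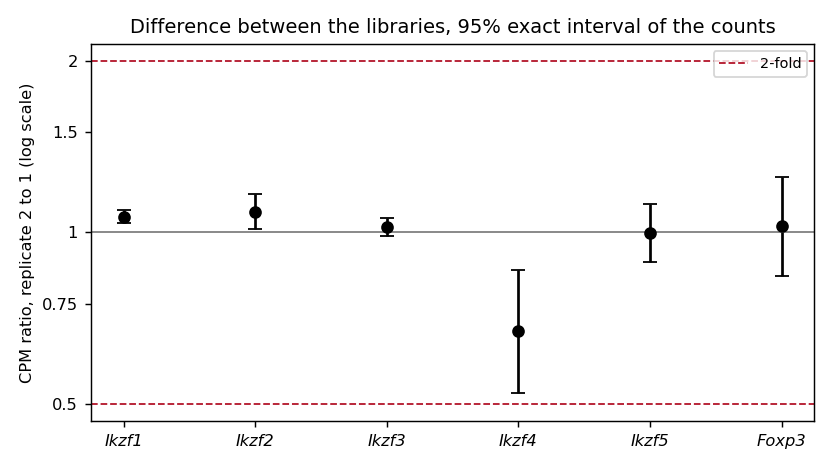
Ratio of CPM in replicate 2 to replicate 1 (log scale) for each member, with the 95% exact interval of the counts. The dashed lines mark 2-fold in either direction, and none of the 6 ratios reaches them. Ikzf4, at 0.670, lies farthest from 1.

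*Foxp3* was next set beside genes typical of regulatory T cells. Of 15 such genes, 14 were at 1 CPM or more in both libraries, with a median over the list of 15.4 CPM, and none was called between the libraries (0 of 14 tested). The highest were *Itgae* (485 ± 75.8 CPM), which encodes the integrin CD103 and is also expressed by CD8+ T cells, *Icos* (74.7 ± 9.24 CPM), a co-stimulatory receptor, and *Capg* (62.6 ± 6.76 CPM), an actin-capping protein. The lowest were *Lrrc32* (1.39 ± 0.486 CPM), which encodes the TGF-β-presenting protein GARP, and *Il10*, with 0 counts in both libraries. *Il10* RNA was not detectable at this depth, which allows up to 0.179 and 0.185 CPM. Without a minimum fold, 5 of the 14 passed, against the same 16.3% of all genes. Per kb, *Foxp3* was 4.81 ± 0.470 times *Il2ra*, which encodes CD25, and 1.99 ± 0.0891 times *Ctla4* (SD, n = 2). *Il2ra* had 49 and 56 counts and *Ctla4* had 50 and 53 counts, and both genes were chosen after their values were seen, as the classical surface markers of regulatory T cells. *Foxp3* was also 14.8 times *Cd4* per kb in replicate 1 and 6.56 times in replicate 2. All ratios of *Foxp3* in this comparison are uncertain by its overlaps, 18.7% of its exon bases on the opposite strand and 18.6% with *Flicr*. Reads of the overlapping genes were not separated from those of *Foxp3*. Over the whole list, *Foxp3* per kb was higher than 5 of the 14 genes with counts in both libraries and lower than 7, and the order of 2 differed between the libraries. It was far below *Itgae*, at 0.0255 ± 0.00443 of its level, and also below *Tnfrsf18*, *Capg*, *Icos*, *Izumo1r*, *Tigit*, and *Ccr8*, at 0.103 to 0.196 of theirs. Of the markers of CD4 T cells, *Zbtb7b* and *Cd40lg* were at 1 CPM or more in both libraries and *Cd4* was not (2 of 3), and their summed level was 23.1 and 26.1 CPM.

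**Figure D5:**
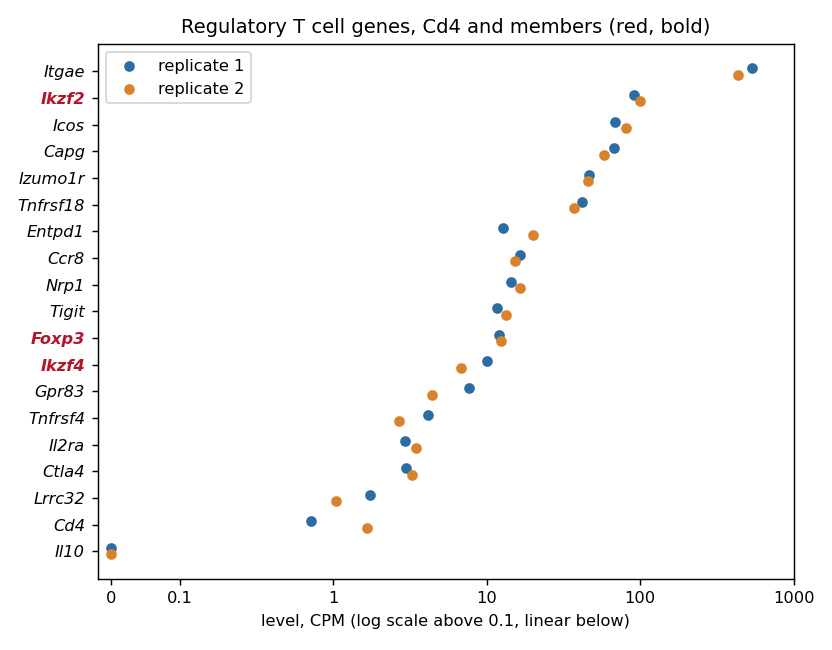
Levels in CPM (log scale above 0.1, linear below) of 15 regulatory T-cell genes, Cd4, and 3 members (red, bold) in replicate 1 (blue) and replicate 2 (orange), ordered by mean. Foxp3 lies at 12.1 and 12.4 CPM, above Il2ra, Ctla4, and Cd4 and below Itgae, Icos, and Capg, and Il10 is at 0 in both. Reads of genes that overlap Foxp3 were not separated from its own.

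Foxp3 acts with other DNA-binding factors, and *Foxp3* itself is induced by TCR, IL-2, and TGF-β signals. All 14 genes of this group were at 1 CPM or more in both libraries, and none was called between them (0 of 14). The highest were *Satb1* (549 ± 1.10 CPM), a chromatin organizer needed for regulatory T cells, *Foxo1* (263 ± 5.71 CPM), which activates *Foxp3*, and *Cbfb* (200 ± 6.35 CPM), the common subunit of Runx factors. The lowest were *Kat5* (30.9 ± 0.128 CPM), an acetyltransferase that modifies Foxp3, and *Runx1* (36.5 ± 3.76 CPM). Of the 10 genes of agonist selection, which strong TCR signals induce and which accompany Helios in thymocytes, all 10 were found and 0 were called. *Cd5* (257 ± 25.7 CPM), *Cd69* (108 ± 11.7 CPM), and *Bcl2l11* (106 ± 12.4 CPM), which encodes the pro-apoptotic protein Bim, were highest. *Tnfrsf9* (11.2 ± 1.05 CPM) and *Egr3* (16.1 ± 1.55 CPM) were lowest.

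Ikaros and Aiolos bring the NuRD remodelling complex to chromatin. All 13 NuRD subunits were at 1 CPM or more in both libraries, with a median of 138 CPM, and none was called between them (0 of 13). The highest were the remodelling ATPases *Chd3* (897 ± 108 CPM) and *Chd4* (759 ± 47.2 CPM), followed by *Mta2* (284 ± 7.77 CPM). *Mta3* (73.9 ± 1.67 CPM) and the deacetylase *Hdac2* (83.7 ± 2.30 CPM) were lowest. Of 4 other corepressors, *Ctbp1* (243 ± 13.4 CPM), *Sin3b* (111 ± 8.32 CPM), and *Sin3a* (103 ± 4.41 CPM) were found at 1 CPM or more, while *Ctbp2* had 8 and 6 counts. Thalidomide-like drugs cause loss of Ikaros and Aiolos in human cells through the cereblon ubiquitin ligase. RNA of 5 of 5 subunits of this ligase was found at 1 CPM or more in both libraries. *Ddb1* (256 ± 19.3 CPM), *Crbn* (68.7 ± 6.75 CPM), and *Cul4a* (44.7 ± 2.24 CPM) were highest and *Rbx1* (42.3 ± 1.10 CPM) and *Cul4b* (42.9 ± 0.390 CPM) lowest, and 0 of 5 were called.

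Of 10 genes with known control by Ikaros in lymphocytes, 3 were at 1 CPM or more in both libraries and 0 of 6 tested were called. *Cd8a* (165 ± 9.31 CPM), *Dtx1* (112 ± 8.44 CPM), a regulator of Notch signalling, and *Dntt* (13.2 ± 0.282 CPM), which encodes terminal transferase, were the 3. In these mice the endogenous coding region of *Cd8a* is removed and the cDNA is in the *Rosa26* locus. The *Cd8a* level therefore cannot be read as that of a gene under its own control elements, since counts per gene do not separate transgene from locus. *Rag2* had 4 and 1 counts, *Ptcra* 2 and 2, *Il2* 3 and 1, and *Igll1*, a gene of pre-B cells, 0 and 1. Among the 22 transcription factors, the highest levels were those of *Ets1* (1401 ± 123 CPM), *Tcf7* (831 ± 24.5 CPM), and *Satb1*, and the lowest those of *Zbtb7b* (16.8 ± 1.89 CPM) and *Zbtb16* (19.9 ± 2.39 CPM), which encodes PLZF. *Myb*, a factor of immature thymocytes, was the only one of the 22 called, higher in replicate 2 by 1.03 on the log2 scale (372 and 740 counts, adjusted p = 8.02e-29 by the exact binomial test). Without a minimum fold, 6 of 13 NuRD subunits, 2 of 4 other corepressors, 2 of 5 subunits of the cereblon ligase, 1 of 14 Foxp3 partners and inducers, 3 of 10 agonist selection genes, 2 of 6 Ikaros-controlled genes, and 10 of 22 transcription factors passed, against 16.3% of all genes. Of the 2596 genes that passed in this way, 2146 were higher in replicate 2 and 450 in replicate 1. The lists were not counted again with TMM or DESeq2 scaling, with which *Ikzf1* no longer passed. With the minimum fold, the 1 call among these lists stands against 1.52% of all genes.

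Other cells that express Ikaros-family genes were looked for by their markers. Of 7 B-cell markers, 1 was at 1 CPM or more in both libraries, *Cd79b* (12.8 ± 1.60 CPM), and *Pax5*, which defines the B lineage, had 1 and 0 counts. The summed level of these markers was 14.5 and 16.4 CPM, most of it *Cd79b* (11.7 and 14.0 CPM). Whether any *Ikzf3* RNA came from B cells was not tested. Of 8 markers of double-positive thymocytes, 4 were found, with summed levels of 43.4 and 41.8 CPM. Of 5 markers of γδ T cells, all 5 were found, with sums of 53.8 and 50.9 CPM in replicates 1 and 2. Most of this was *Tcrg-C2* (20.4 and 17.5 CPM) and *Tcrg-C4* (21.1 and 20.4 CPM). *Trdc* was at 5.32 and 7.14 CPM and *Sox13* at 1.20 and 1.05 CPM. Whether γδ T cells were present was not tested. Of the markers of dendritic cells 2 of 7, of macrophages 3 of 6, and of thymic epithelium 1 of 6 were found, with summed levels from 3.88 to 16.2 CPM. Of the macrophage markers, *Csf1r* had 163 and 191 counts, *Cd68* 51 and 47, *Itgam* 34 and 18, and *Lyz2* 0 and 2. *Ebf1*, *Siglech*, *Adgre1*, *Fcgr1*, *Foxn1*, *Krt5*, and *Krt8* were also under 3 counts in at least 1 library. None of these lists held a called gene other than the NK-cell list.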

How the data were processed

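RNA-seq libraries of poly(A) RNA were sequenced as single-end reads of 50 bases. Per the labels and the study's methods, the authors mapped the reads onto mm10 with TopHat2 2.1.1, made read counts per gene with HTSeq 0.6.1, and deposited them as whole-number counts without normalization. The annotation and strand setting are not given in the sources used here. Libraries were grouped by title (2 replicates of 1 group). The labels do not state from how many mice each came. *Xist* and *Ddx3y* differed between them as between female and male cells, so they were not a single mouse sampled again. Errors measure the spread between these samples.

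CPM were computed from totals on genes, leaving out the lines for unassigned reads (55.9% of uniquely aligned reads on no gene in both libraries). Exon lengths, overlaps, and coding sequences came from GENCODE M21 (GRCm38), in which 46394 of 48321 symbols were found. No table of proteins was used, and residues were counted by translating coding sequences. The C2H2 pattern had 2 to 4 residues between cysteines, 12 between cysteine and histidine, and 3 to 5 between histidines. A two-sided exact binomial test (scipy 1.17.1) compared replicate 2 with replicate 1 for genes with at least 10 counts summed. Benjamini-Hochberg adjustment was over all of them, and genes were called at an adjusted p under 0.05 and 2-fold. The test was also run on simulated counts with counting error alone, which cannot show how it behaves under biological variation. Opposite-strand pairs were taken where the inner gene had at least 200 exon bases and its host at least 50 CPM. Reads carry no molecular identifiers, so intervals and the 3-count floor hold for counting error alone. Alternatives were edgeR 4.0.16 TMM factors, DESeq2 1.42.0 size factors, totals that leave out 392 genes of mitochondria or ribosomal RNA, other lengths, minimum counts and CPM, no minimum fold, omission of each replicate, and the exact test of edgeR at a fixed biological coefficient of variation of 0.1 (edgeR estimated 0.105 from these libraries). Python 3.11.15 and R 4.3.3 were used.

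The members and lists were chosen with earlier results of these data known. Besides the members, the genes named from each list are the 3 highest and 2 lowest by mean CPM, every gene called, and every gene under 3 counts in a library, and of other genes those overlapping a member and the checks *Xist*, *Ddx3y*, *Cd4*, *Cd8a*, and *Cd8b1*. Genes named beside a member for its rank among the transcription factors, and further marker genes, were chosen after their values were seen. Of the marker lists, some genes are named and the rest given as counts and sums. The finger sequences of the other paralogs and 1 marker gene are not reported here.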

Additional observations from a re-analysis of the deposited data

How the results depend on the processing

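Without mitochondrial and ribosomal RNA genes in the totals, the means rose to 810 CPM for *Ikzf1*, 111 CPM for *Ikzf2*, 399 CPM for *Ikzf3*, 41.2 CPM for *Ikzf5*, and 14.2 CPM for *Foxp3*, each by more than 1 SD, by the construction of a smaller total. Relative to *Ikzf1*, over the longest coding transcript *Ikzf2* was at 0.0761, *Ikzf3* at 0.694, *Ikzf5* at 0.0592, and *Foxp3* at 0.0235. Over the coding sequence *Ikzf2* was at 0.138, *Ikzf3* at 0.519, and *Ikzf5* at 0.0649, against 0.0680, 0.325, 0.0513, and 0.0221 for *Ikzf2*, *Ikzf3*, *Ikzf5*, and *Foxp3* over all exons. The 242 genes called between the libraries (92 higher in replicate 1 and 150 in replicate 2) became 55 with a minimum of 100 counts, 60 with edgeR's exact test, and 2596 with no minimum fold, which also raised the members called from 0 to 2. With TMM or DESeq2 factors, 197 were called (99 higher in replicate 1 and 98 in replicate 2). TMM and DESeq2 factors moved none of the 6 levels by more than 1 SD. The number of genes found in the pathway lists was 80 of 89 at 1 CPM, 75 at 5 CPM, and 81 at 0.5 CPM. With 2 libraries of 1 condition, the depth limits the members at low counts, *Ikzf4* and *Foxp3*, most. No paired analysis was possible because the series holds a single group.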
